A study of Mus musculus with 12 samples.

Results

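The cytochrome P450 genes were followed in the brain and the liver of aged mice under periodic heat stress. Members were taken by name: every row of the gene count table whose symbol is Cyp followed by a family number, a subfamily letter and a member number. This gave 93 genes in 38 subfamilies, of 25239 gene symbols counted. Symbols of another form, such as Cyp51, Cyp4a12a or the P450 pseudogenes, fall outside that rule. All mice were aged (24 months) male C57BL6/J wild type animals. The heat stress mice spent 3 h a day for 15 days at 40 ± 0.5 °C and a humidity of 60 ± 5%, and the control mice did not. RNA of brain and liver from each group was sequenced, which gave 4 groups of 3 libraries. The p-values below measure the spread between these 3 libraries per group, and whether a brain and a liver library of the same number came from the same mouse is not given in the sources used here.

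P450 enzymes are heme proteins of the endoplasmic reticulum or the mitochondria that insert an oxygen atom into their substrates. Families CYP1 to CYP4 act largely on drugs, toxins, fatty acids and steroids and are most abundant in hepatocytes, while the higher numbered families mostly carry out single steps of bile acid, steroid hormone, vitamin D and retinoic acid metabolism. Microsomal members draw electrons from P450 oxidoreductase (Por), and the heme they need is limited in liver by 5-aminolevulinate synthase (Alas1). In liver, many members are switched on by nuclear receptors such as CAR, PXR and PPARα, and several follow the daily rhythm.

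The libraries held 10466198 to 15609040 counts, and P450 genes took 2.78% to 3.57% of them in liver and 0.0388% to 0.0452% in brain. Of 8 hepatocyte markers 7 were counted and summed to at least 74293 CPM in every liver library, and 7 neuron markers to at least 7664 CPM in every brain library. In liver, 12 skeletal muscle markers summed to 473 and 2625 CPM (normalized counts scaled to a library of 1e6 counts) in control replicate 1 and heat stress replicate 2, against 1.40 to 8.12 in the other libraries, and values without them are given below or in the closing section for some members. Oligodendrocyte markers summed to 26.4 in liver control replicate 1 and to at most 5.92 in the other liver libraries. T cell markers were higher in every heat stress liver (5.78 to 11.2 CPM against 2.19 to 4.94 CPM), with 2 of 5 tested at an unadjusted p under 0.05. The sums of 2 brain lists were likewise separate in liver, those of brain endothelium (142, 169 and 141 CPM in heat stress against 129, 120 and 128) and choroid plexus (169, 183 and 190 against 130, 135 and 144), and 6 of 6 Kupffer cell markers had a positive log2 fold change. The column names mark control replicate 2 and heat stress replicates 1 and 3 of liver with the suffix 2nd, whose meaning is not given. Ratios within the suffix thus rest on 1 control and 2 heat stress libraries, and those without it on 2 and 1, so neither has replicates in both arms and neither is a test. These features were not tested as a source of the P450 values, and in bulk tissue fewer cells of a type cannot be told apart from less RNA per cell.

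Upon exposure to heat stress, no liver P450 gene passed the test. Of 93 members, 64 had enough reads to be tested in liver, 21 had 3 counts or fewer in every liver library, and 8 lay between. None of the 64 had an adjusted p under 0.05 in edgeR's quasi-likelihood test (background 0% of 12296 genes), and the lowest was 0.382 for Cyp2a22. At an unadjusted p under 0.05 there were 8 members, 5 higher and 3 lower, which is 12.5% of those tested against a background of 5.84% of all genes (2.97% higher and 2.87% lower). Both counts depended strongly on which libraries were included, as given in the closing section. DESeq2, run as an alternative, called 3 members at an adjusted p under 0.05, which were Cyp2a5, Cyp2a22 and Cyp26a1 (background 0.537%). The median log2 fold change of the 64 members was -0.10, beside 0.01 over all tested genes, and it turned positive without both libraries with muscle transcripts. Values of single members ran from -1.62 for Cyp17a1 to 1.32 for Cyp2g1. Groups did not overlap, with all heat stress libraries higher, for 4 tested members (background 5.38%), and with all lower for 7 (background 5.73%).

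**Figure D1:**
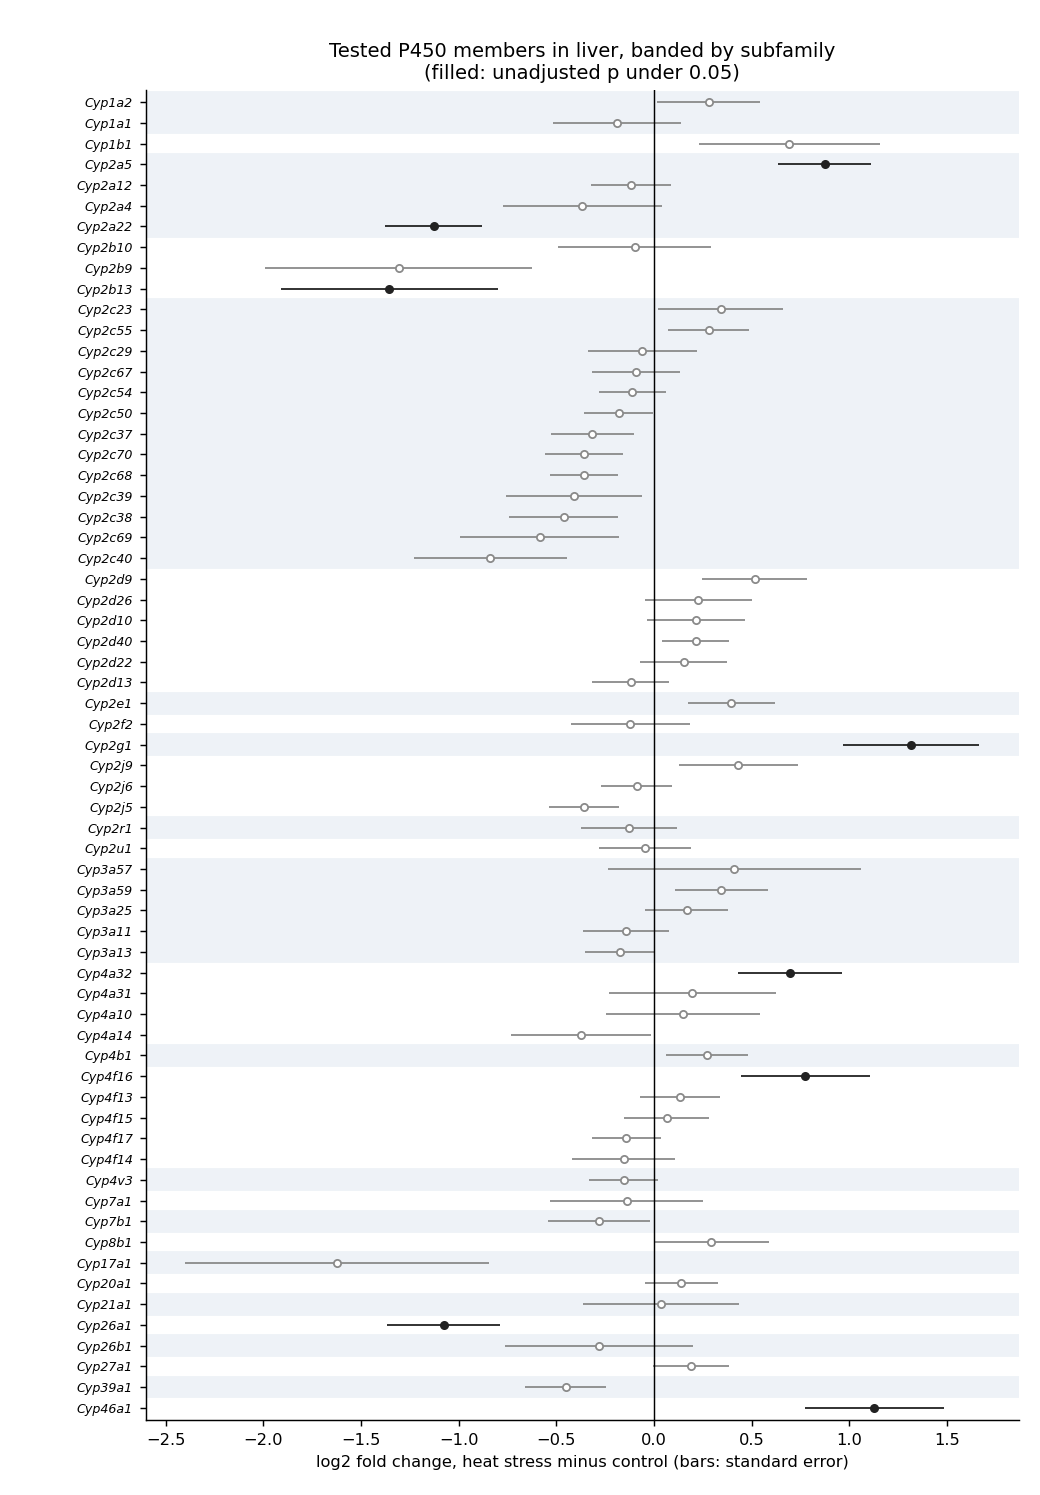
Log2 fold change (x axis, heat stress minus control, bars showing the standard error) of each of the 64 tested liver P450 members, 1 row each, banded by subfamily, with filled points for an unadjusted p under 0.05. Filled points lie on both sides of 0, from -1.35 for Cyp2b13 to 1.32 for Cyp2g1, and most Cyp2c members lie below 0.

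Together the P450 transcripts amounted to 31006 ± 1190 CPM in control liver and 32662 ± 5157 CPM in heat stress liver (SD, n = 3), a ratio of 1.05. The groups overlapped, since heat stress replicate 1 had the lowest sum (28470) and heat stress replicate 3 the highest (38421). Cyp2e1 and Cyp3a11 alone made up 45.7% to 54.5% of the P450 counts of each liver library. Among the tested members, 21 reached their highest value of all 6 libraries in control replicate 1 and another 21 in heat stress replicate 3, while 20 had their lowest in control replicate 2 and 17 in heat stress replicate 1.

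Among subfamilies with at least 2 tested members, the sums of Cyp2a and Cyp2j separated the groups, and the Cyp2a shift came from 1 gene. Cyp2a sums were 1590, 1683 and 1741 CPM in control and 2066, 2190 and 3185 CPM in heat stress liver, a ratio of 1.48. With 3 against 3 libraries, a two-sided exact permutation test cannot go below p = 0.1, the value that this complete separation gives. Cyp2a5, which hydroxylates coumarin and oxidizes bilirubin, stood at 892, 1142 and 1076 CPM in the control libraries and at 1541, 1673 and 2491 CPM after heat stress. All heat stress livers lay above all control livers, with replicate 3 well above the other two. The log2 fold change was 0.88 (SE 0.24), with an unadjusted p of 0.00436 and an adjusted p of 0.465 by edgeR and 0.0478 by DESeq2. Within the libraries with the suffix 2nd the ratio was 1.77, and within those without it 1.70.

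Cyp2a22 ran the other way. It held 15.1, 11.4 and 10.9 CPM in control and 4.09, 6.20 and 6.86 CPM in heat stress liver, so that every heat stress library lay below every control library. Its log2 fold change was -1.13 (SE 0.25), with an adjusted p of 0.382 by edgeR and 0.0189 by DESeq2, and the ratio was 0.480 within the suffix 2nd and 0.477 without it. Leaving out any 1 liver library kept it between -1.29 and -0.95. The remaining members of the subfamily had overlapping groups. Cyp2a4, a testosterone hydroxylase better known from female liver, averaged 5.10 ± 1.39 CPM in control and 3.95 ± 2.39 CPM in heat stress (SD, n = 3). Cyp2a12, an abundant steroid hydroxylase, averaged 617 ± 79.7 and 569 ± 100 CPM (SD, n = 3). Cyp2a5 and Cyp2a4 are near copies, and 8.08% of the 100-base windows of the Cyp2a5 transcripts also occur in Cyp2a4, so reads of either could be assigned to the other. For Cyp2a22 that share was 3.98%, all with Cyp2a12.

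The 4 Cyp2a genes lie within 1 P450 cluster on chromosome 7 (GRCm38, bases 25802475 to 27158668) that holds 13 members, and their starts fall into 2 pairs by sequence. The bases before the RefSeq start of each gene (GRCm38.p6), cut at the first annotated transcript start, are shown because Cyp2a5 and Cyp2a22 differed in direction. Capitals in Cyp2a4 mark bases that differ from Cyp2a5 in the alignment, and capitals in Cyp2a12 mark bases that differ from Cyp2a22. Cyp2a5 is read from chr7:26835089-26835304 (plus strand), Cyp2a4 from chr7:26306942-26307168 (plus strand), Cyp2a22 from chr7:26939387-26939636 (minus strand) and Cyp2a12 from chr7:27028840-27029080 (plus strand).
Cyp2a5: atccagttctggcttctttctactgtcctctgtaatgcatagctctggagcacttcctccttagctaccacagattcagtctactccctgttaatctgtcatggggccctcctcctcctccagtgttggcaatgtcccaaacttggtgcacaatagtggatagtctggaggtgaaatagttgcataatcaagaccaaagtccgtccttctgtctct
Cyp2a4: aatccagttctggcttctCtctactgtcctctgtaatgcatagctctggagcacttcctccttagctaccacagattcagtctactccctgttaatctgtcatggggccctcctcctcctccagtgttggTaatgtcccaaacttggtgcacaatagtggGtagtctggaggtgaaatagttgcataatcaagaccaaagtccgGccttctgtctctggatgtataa
Cyp2a22: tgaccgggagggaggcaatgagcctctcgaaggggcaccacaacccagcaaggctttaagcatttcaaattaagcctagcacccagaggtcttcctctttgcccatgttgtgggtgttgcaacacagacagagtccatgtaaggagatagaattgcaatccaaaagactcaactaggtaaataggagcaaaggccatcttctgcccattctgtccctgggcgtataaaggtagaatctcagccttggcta
Cyp2a12: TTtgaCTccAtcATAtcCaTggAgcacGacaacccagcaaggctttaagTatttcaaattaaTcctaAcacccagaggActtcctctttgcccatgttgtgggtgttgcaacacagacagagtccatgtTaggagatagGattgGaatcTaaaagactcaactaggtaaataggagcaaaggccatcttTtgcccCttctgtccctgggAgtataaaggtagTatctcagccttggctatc
Over the stretches shown, Cyp2a5 and Cyp2a4 were identical at 212 of 216 aligned positions (98.1%), and Cyp2a22 and Cyp2a12 at 215 of 239 (90.0%). Over the 250 bases before each start, with end gaps counted, identity was 97.6% and 82.5% within these pairs and 52.1% to 54.4% across them. In the heat stress comparison, Cyp2a5 was higher in every heat stress library and Cyp2a4 overlapped, while Cyp2a22 was lower in every one and Cyp2a12 overlapped. Differences between members of a pair were not tested.

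The other tested members of that cluster were Cyp2b9, Cyp2b10, Cyp2b13, Cyp2f2 and Cyp2g1. Cyp2g1, known as a steroid hydroxylase of the olfactory mucosa, was scarce in liver at 1.94, 1.47 and 2.52 CPM in control and 6.55, 3.07 and 5.13 CPM in heat stress. Its groups did not overlap, and the log2 fold change was 1.32 (SE 0.35; unadjusted p 0.00377, adjusted p 0.465). The ratio was 3.98 within the suffix 2nd and 1.38 without it. Cyp2g1 is the direct neighbour of Cyp2a5 in the cluster, between bases 26808892 and 26821205. Cyp2b10, the classical target of the receptor CAR, averaged 27.2 ± 14.4 CPM in control and 25.5 ± 11.4 CPM in heat stress (SD, n = 3), with no direction that held across library choices.

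Cyp2b9 and Cyp2b13, which are both higher in female than in male mouse liver, owed their distance to 1 library. Cyp2b13 stood at 7.88 CPM in control replicate 1, at 2.04 and 1.96 CPM in the other controls and at 1.34, 1.18 and 2.21 CPM in heat stress (log2 fold change -1.35, SE 0.56, unadjusted p 0.0353, adjusted p 0.846). Cyp2b9 stood at 79.5 CPM in control replicate 1, at 24.1 and 19.5 CPM in the other controls and at 7.30, 27.7 and 14.8 CPM in heat stress. Groups overlapped for both genes. Without control replicate 1 the log2 fold changes were -0.36 for Cyp2b13 and -0.40 for Cyp2b9, against -1.35 and -1.31 with it. Cyp2f2, which acts on naphthalene in periportal hepatocytes and in airway cells, followed the same library, at 1159 CPM in control replicate 1 and 463 to 784 CPM elsewhere.

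**Figure D2:**
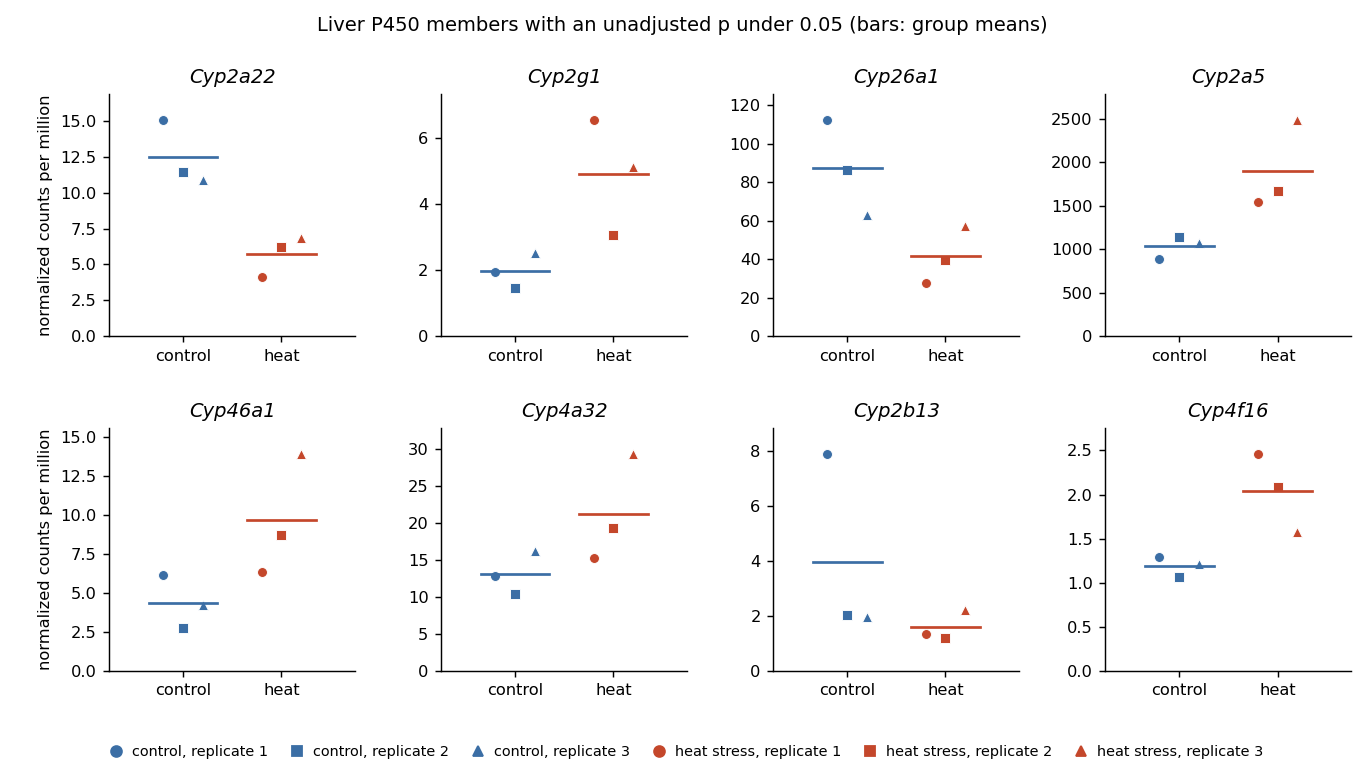
CPM (y axis, from 0) in the 3 control and 3 heat stress liver libraries for the 8 members with an unadjusted p under 0.05, with bars at the group means. Groups are separate for Cyp2a22, Cyp2g1, Cyp26a1, Cyp2a5, Cyp46a1 and Cyp4f16, and overlap for Cyp4a32 and Cyp2b13.

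Most Cyp2c members were lower in heat stress liver by their fitted values, though none passed the test. This subfamily makes epoxides of arachidonic acid and clears many drugs, and 14 of its genes lie in 1 cluster on chromosome 19. Of 13 tested, 11 had a negative log2 fold change and only Cyp2c23 and Cyp2c55 a positive one. Of all 64 tested members 36 were negative, and the median over all tested genes was 0.01. The share of all genes with a negative value was not counted, and no set test was run. Cyp2c50 stood at 1207, 1118 and 1128 CPM in control and 1011, 1011 and 1026 CPM in heat stress, a log2 fold change of -0.18 (SE 0.18). Cyp2c68 stood at 255, 283 and 253 CPM against 189, 226 and 202 CPM, a log2 fold change of -0.36 (SE 0.18, unadjusted p 0.0691). Cyp2c70, which makes the muricholic acids of mice, stood at 588, 514 and 636 CPM against 508, 371 and 478 CPM (log2 fold change -0.36, SE 0.20). For these genes and for Cyp2c54 (-0.11, SE 0.17) every heat stress library lay below every control library (background 5.73% of tested genes). They are named here after their values were seen. The summed Cyp2c level overlapped between groups (5117 ± 646 CPM in control, 4589 ± 418 CPM in heat stress; SD, n = 3), with heat stress replicate 3 at 5051 above control replicates 2 and 3 at 4615 and 4889. Cyp2c29, the highest Cyp2c gene per length by the control mean but not in control replicates 2 and 3, stood at 2061 CPM in control replicate 1 and at 1049 to 1580 CPM elsewhere. Near copies limit these values: 34.4% of the 100-base windows of Cyp2c40, 35.4% of those of Cyp2c69 and 19.8% of those of Cyp2c68 also occur in another gene.

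Cyp2j5, an epoxygenase of liver and kidney, was the main Cyp2j member and was lower in all heat stress livers. It stood at 668, 588 and 700 CPM in control and 524, 500 and 501 CPM in heat stress, a log2 fold change of -0.36 (SE 0.18, unadjusted p 0.0719, adjusted p 0.888). Cyp2j sums were 758 ± 58.3 and 616 ± 24.9 CPM (SD, n = 3), a ratio of 0.813, with separate groups. Cyp2j6 and Cyp2j9 overlapped between groups.

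Cyp2e1, the ethanol-inducible enzyme of pericentral hepatocytes, had the highest level per length of any member in control liver, at 2716 ± 215 CPM per kilobase of exon (SD, n = 3). Cyp3a11, the main drug-metabolizing CYP3A of mouse liver, came next at 1936 ± 258, and these 2 were separate in the control libraries. Cyp3a25 (561), Cyp2a5 (500) and Cyp2c29 (467) followed, and neighbours in the order overlapped from the third place to the 13th, that of Cyp2j5. Cyp2e1 stood at 6394, 5655 and 5536 CPM in control and 6355, 7294 and 9496 CPM in heat stress, a log2 fold change of 0.40 (SE 0.22, unadjusted p 0.106), and of 0.21 without heat stress replicate 3. Cyp3a11 stood at 8341, 10599 and 10642 CPM against 7959, 8322 and 10511 CPM (log2 fold change -0.14, SE 0.22). Neither gene separated the groups.

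In the Cyp2d subfamily, which includes sterol and drug hydroxylases, 5 of 6 tested members had a positive log2 fold change, and Cyp2d13 a negative one. The largest was Cyp2d9, a male-enriched testosterone 16α-hydroxylase, at 0.52 (SE 0.27, unadjusted p 0.0855), and Cyp2d10, the highest per length of those with an annotated length, was at 0.22 (SE 0.25). All had overlapping groups. For Cyp2u1, a fatty acid hydroxylase, the log2 fold change was -0.05 (SE 0.24), and for Cyp20a1, whose substrate is unknown, 0.14 (SE 0.19).

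The CYP4A enzymes, fatty acid omega-hydroxylases and standard targets of PPARα, gave no common direction. Cyp4a14 stood at 433, 242 and 252 CPM in control and 121, 324 and 271 CPM in heat stress (log2 fold change -0.37, SE 0.36), and it was at -0.062 without control replicate 1. Cyp4a10 was at 251, 92.6 and 112 CPM against 97.0, 199 and 208 CPM (0.15, SE 0.39), and Cyp4a31 at 0.20 (SE 0.43). Cyp4a32 was at 12.8, 10.4 and 16.2 CPM against 15.3, 19.2 and 29.3 CPM, with an unadjusted p of 0.0258 and an adjusted p of 0.799. Its groups overlapped, the log2 fold change was 0.70 (SE 0.27), and 18.2% of its 100-base windows occur in another gene, mostly the more abundant Cyp4a10. Without heat stress replicate 3 it was at 0.38. Within the suffix 2nd the Cyp4a32 ratio was 2.15, and without it 1.33. Ppara itself was at 0.39 (SE 0.20, unadjusted p 0.0844).

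Of the other CYP4 genes, Cyp4f16 had separate groups at a low level, with 1.29, 1.06 and 1.21 CPM in control and 2.46, 2.09 and 1.58 CPM in heat stress (log2 fold change 0.78, SE 0.33, unadjusted p 0.0421, adjusted p 0.846). Cyp4f14, a leukotriene B4 hydroxylase and the highest Cyp4f gene per length, was at -0.16 (SE 0.26). Cyp4v3, an omega-hydroxylase of the retina and liver, was at -0.15 (SE 0.18), and Cyp4b1 at 0.27 (SE 0.21). Groups of these 3 overlapped.

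**Figure D3:**
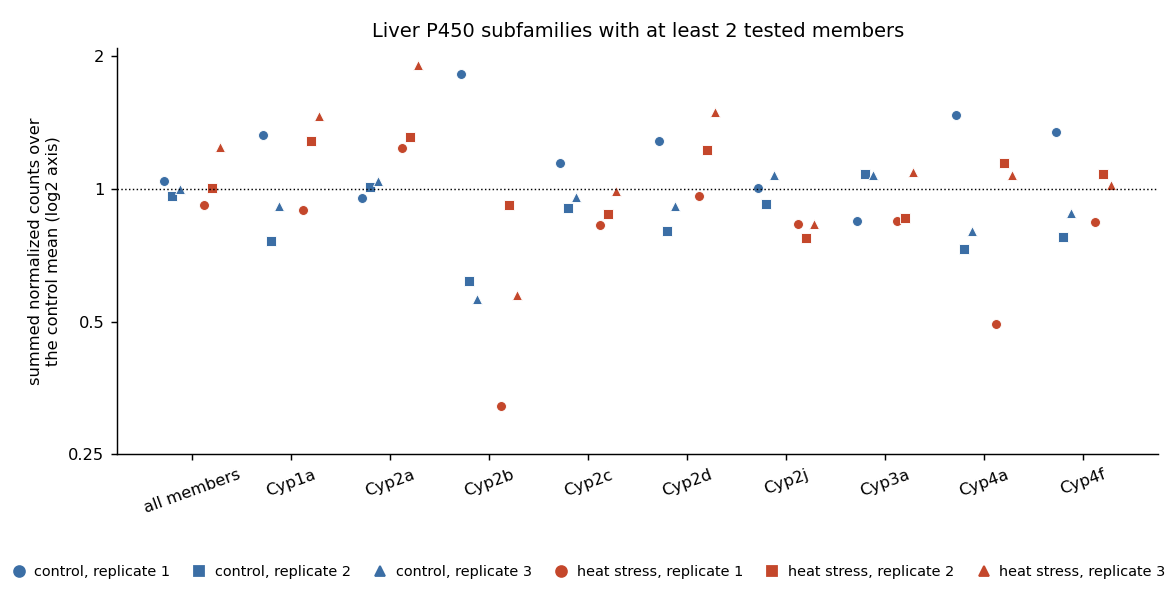
Summed normalized counts of each liver library over the control mean (y axis, log2 scale) for all members and for the 9 subfamilies with at least 2 tested members, with 1 point per library. Heat stress and control points are separate for Cyp2a, above the controls, and for Cyp2j, below them.

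The CYP1 genes, the readout of the aryl hydrocarbon receptor, did not separate the groups. Cyp1a2 stood at 610, 350 and 420 CPM in control and 412, 592 and 671 CPM in heat stress, a log2 fold change of 0.28 (SE 0.26). Cyp1a1, the most inducible of them, was at 2.13 ± 0.451 CPM in control and 1.85 ± 0.379 CPM in heat stress (SD, n = 3). Cyp1b1 was at 0.759 ± 0.181 and 1.22 ± 0.579 CPM (SD, n = 3), with overlapping groups. Ahr had a log2 fold change of -0.31 (SE 0.18).

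The bile acid genes showed no common direction either, with 3 of 6 tested members of the bile acid and oxysterol list positive and 3 negative. Cyp7a1, the rate-limiting enzyme of classical bile acid synthesis, stood at 86.4, 104 and 119 CPM in control and 140, 105 and 36.0 CPM in heat stress. The low value of heat stress replicate 3 set its sign, as the log2 fold change was -0.14 (SE 0.39) with that library and 0.23 without it. Cyp8b1, which makes cholic acid, was at 0.29 (SE 0.29), Cyp27a1, the mitochondrial sterol 27-hydroxylase, at 0.19 (SE 0.19), and Cyp7b1, the oxysterol 7α-hydroxylase, at -0.28 (SE 0.26). When 1 liver library was left out, values ran from 0.076 to 0.67 for Cyp8b1, 0.084 to 0.27 for Cyp27a1 and -0.48 to -0.043 for Cyp7b1. Cyp39a1, the 24-hydroxycholesterol 7α-hydroxylase, stood at 25.8, 19.7 and 25.1 CPM in control and 13.5, 17.1 and 21.0 CPM in heat stress (-0.45, SE 0.21, unadjusted p 0.0550). Only heat stress replicate 3 of Cyp39a1 reached into the control range.

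Cyp46a1, the cholesterol 24-hydroxylase of neurons, was the list's member with separate groups in liver. It stood at 6.13, 2.77 and 4.19 CPM in control and 6.33, 8.71 and 13.9 CPM in heat stress (log2 fold change 1.13, SE 0.36, unadjusted p 0.0101, adjusted p 0.628). The lowest heat stress library was just above the highest control library. The 7 neuron markers summed to 35.4, 14.7 and 13.4 CPM in the control livers and 14.3, 21.1 and 18.6 CPM in the heat stress livers. Their part in the Cyp46a1 values was not tested. The Cyp46a1 ratio was 3.64 within the suffix 2nd and 1.69 without it.

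Retinoic acid is cleared by the CYP26 enzymes, and Cyp26a1, the main one of liver and itself a retinoic acid target, was lower in every heat stress liver. It stood at 113, 86.4 and 63.2 CPM in control and 27.8, 39.4 and 57.3 CPM in heat stress. The groups did not overlap, though heat stress replicate 3 and control replicate 3 lay close. The log2 fold change was -1.08 (SE 0.29), with an unadjusted p of 0.00412 and an adjusted p of 0.465 by edgeR and 0.0480 by DESeq2. The ratio was 0.493 within the suffix 2nd and 0.448 without it, and none of its 100-base windows occurs in another gene. Cyp26b1 was scarce and overlapped (5.76 ± 1.79 CPM in control, 4.77 ± 3.59 CPM in heat stress; SD, n = 3), and Cyp26c1 had at most 2 counts in any liver library.

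The start of Cyp26a1 is shown because it is known for its retinoic acid response elements. The 240 bases at chr19:37697558-37697797 (plus strand, GRCm38.p6, from RefSeq) end at the first annotated transcript start. Capitals mark a direct repeat of AGTTCA spaced by 5 bases, which reads on the opposite strand here.
Cyp26a1: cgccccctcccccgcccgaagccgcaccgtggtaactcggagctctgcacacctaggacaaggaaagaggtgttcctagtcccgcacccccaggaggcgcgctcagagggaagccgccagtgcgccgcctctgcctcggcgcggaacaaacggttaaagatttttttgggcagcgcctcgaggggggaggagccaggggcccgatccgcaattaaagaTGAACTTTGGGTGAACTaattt
This spelling, AGTTCA, 5 bases of any kind and AGTTCA again, on either strand, was searched after the values were seen and occurs in 8 of 32851 promoter windows (0.024%), 250 bases before to 50 after each start, and in 1 of the 82 windows found for 72 members. The single hexamer AGGTCA, a nuclear receptor element, occurs in 26.8% of the members' windows and in 16.3% of all windows. The E-box CACGTG occurs in 2.44% of the members' windows, those of Cyp2j6 and Cyp4v3, against 7.15% of all, and GCGTG, the core of the aryl hydrocarbon receptor element, in 19.5% against 32.4%. The PAR bZIP sites ttatgtaa and ttacgtaa occur in 0 of the 82 windows, against 0.938% and 0.119% of all, which says only that these letters are not in these windows. A match is a description of the letters only.

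Steroid hormone and vitamin D genes were mostly at or near 0 in liver. Cyp17a1, the steroid 17α-hydroxylase, had the most negative fitted value of all members, but its spread was wide: 34.7, 8.89 and 10.7 CPM in control and 4.77, 11.2 and 1.66 CPM in heat stress (log2 fold change -1.62, SE 0.78, unadjusted p 0.0784). Groups overlapped, and values ran from -2.50 to -0.73 when 1 library was left out, with -0.73 without control replicate 1. Cyp21a1 stood at 1.32 ± 0.204 CPM in control and 1.36 ± 0.517 CPM in heat stress (SD, n = 3). Cyp11b1, Cyp11b2 and Cyp19a1 had no count in any liver library. The vitamin D 25-hydroxylase Cyp2r1 was at -0.13 (SE 0.24), while Cyp24a1 and Cyp27b1 had at most 1 count. Cyp2c65 was counted only after heat stress, with 4, 2 and 2 counts against 0 in each control, too few to test.

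The partners of the P450 enzymes were examined with a list of 20 electron transfer and heme genes and one of 26 regulators. In liver, 13 of the 20 tested partner genes had a positive log2 fold change and 2 an unadjusted p under 0.05, both higher (background 2.97%), with none past the adjusted threshold. Alas1 stood at 435, 217 and 281 CPM in control and 592, 677 and 844 CPM in heat stress (log2 fold change 1.18, SE 0.27, adjusted p 0.416 by edgeR and 0.00763 by DESeq2). Por stood at 225, 165 and 181 CPM against 250, 334 and 374 CPM (0.74, SE 0.22, adjusted p 0.559 by edgeR and 0.130 by DESeq2). Both genes were higher in every heat stress liver. Their ratios were 3.31 and 1.89 within the suffix 2nd and 1.89 and 1.64 without it. Hmox1, which degrades heme, was at 0.50 (SE 0.24) with overlapping groups.

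Among the regulators, 16 of 24 tested in liver had a positive log2 fold change, and 3 of them, Cebpb, Dbp and Tef, had an unadjusted p under 0.05 and were higher (background 2.97%). Dbp and Tef are PAR bZIP factors of the circadian output, which are known to act with Hlf on genes that include Alas1, Por and Cyp2a5 in mouse liver. Cyp2a4, whose start is nearly identical to that of Cyp2a5, was at -0.37 with overlapping groups. Whether these factors had a part in the P450 values was not tested. Dbp stood at 98.4, 45.1 and 72.2 CPM in control and 115, 158 and 175 CPM in heat stress (log2 fold change 1.05, SE 0.28, unadjusted p 0.00411, adjusted p 0.465). Tef was at 0.44 (SE 0.19, adjusted p 0.848) and Cebpb, a factor of the acute phase, at 0.97 (SE 0.22, adjusted p 0.408 by edgeR and 0.0193 by DESeq2). All 3 were higher in every heat stress liver (background 5.38%), while Hlf was at 0.07 (SE 0.17) with overlapping groups. Ratios within the suffix 2nd were 3.21 for Dbp, 1.74 for Tef and 1.77 for Cebpb, and without it 1.85, 1.21 and 2.26. The receptor CAR (Nr1i3) was at 0.51 (SE 0.26, unadjusted p 0.0821) and PXR (Nr1i2) at 0.21 (SE 0.22). The zonation of the liver, which sets the place of many P450 genes, was read from lists without P450 genes: the median log2 fold change was 0.04 over 12 pericentral and -0.05 over 10 periportal genes.

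**Figure D4:**
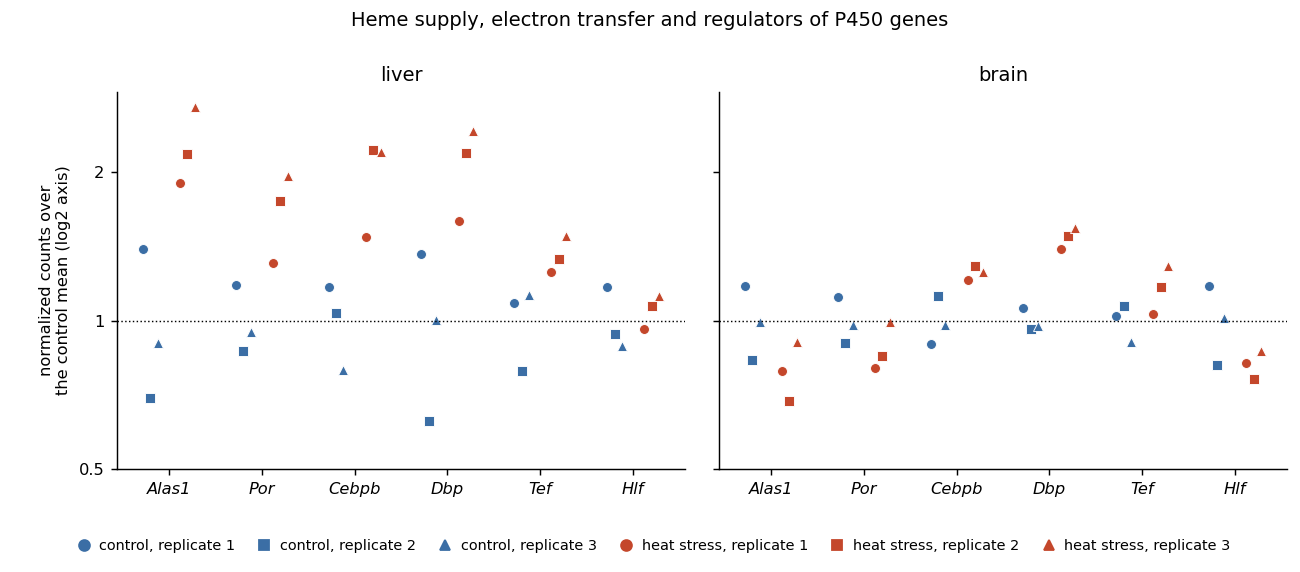
Normalized counts of each library over the control mean of its tissue (y axis, log2 scale) for Alas1, Por, Cebpb, Dbp, Tef and Hlf in liver (left) and brain (right). In liver the heat stress points of the first 5 genes lie above all control points, and in brain this holds for Cebpb and Dbp only.

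In brain, P450 transcripts were rare and no member passed the test. Of 93 members, 23 were tested, 56 had 3 counts or fewer in every brain library and 14 lay between. None of the 23 had an adjusted p under 0.05 by edgeR (background 0% of 14806 genes), and 1 had an unadjusted p under 0.05 (4.35%, background 20.1%, with 10% in each direction). DESeq2 gave an adjusted p only for Cyp46a1, Cyp2j6, Cyp2j9, Cyp2d22 and Cyp4x1, none of them under 0.05 (background 4.16%). It gave none for the other tested members, so DESeq2 could not call them. The median log2 fold change was -0.10, beside -0.003 over all tested genes. It was positive in the fit of all groups and without a filter, where more members were tested. P450 sums were 430 ± 22.9 CPM in control and 404 ± 12.2 CPM in heat stress (SD, n = 3), with overlapping groups and a ratio of 0.939. Markers of other cells and regions also differed between the brain groups: all 8 striatum markers had an unadjusted p under 0.05 and were higher in heat stress, 9 of 9 choroid plexus markers were lower (5 of them with such a p; sum 656 to 1179 CPM against 305 to 556), and 6 of 6 endothelial markers were lower (5 with such a p). Habenula markers were lower for 4 of 4 (3 with such a p; sum 46.8 to 61.3 CPM against 28.6 to 46.6), and mural and meningeal markers for 5 of 7 (3 with such a p). The sum of the hepatocyte list was also lower in every heat stress brain (229 to 1070 CPM against 1164 to 2327). Of its 7 counted genes only 2 were tested in brain, 1 higher and 1 lower. Like the choroid plexus sum, it was highest in control replicate 3 and lowest in heat stress replicate 3. Which cells gave it was not tested. T cell markers summed to 4.94, 5.76 and 3.89 CPM in control and 13.8, 6.54 and 19.1 CPM in heat stress brains, and the 1 tested was higher with such a p. Neuron markers were lower for 7 of 7 (1 with such a p). Their part in the P450 values was not tested.

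Cyp46a1 led the brain members, at 46.2 ± 8.74 CPM per kilobase in control brain (SD, n = 3), and it alone made up 29.1% to 40.8% of the P450 counts. It stood at 184, 129 and 142 CPM in control and 115, 134 and 163 CPM in heat stress (log2 fold change -0.15, SE 0.17, unadjusted p 0.414). The groups overlapped widely. Next in order per length came Cyp2j9 (11.4 ± 1.47), Cyp2d22 (10.0 ± 0.703) and Cyp2j6 (9.28 ± 0.631), which did not differ beyond their spread as neighbours, then Cyp20a1, Cyp4f15, Cyp27a1, Cyp7b1, Cyp4x1 and Cyp4f14 (7.13 down to 3.94 CPM per kilobase).

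Cyp2d22, often taken as the mouse counterpart of human CYP2D6, was the brain member with an unadjusted p under 0.05. It stood at 41.8, 36.3 and 39.7 CPM in control and 31.3, 31.2 and 27.8 CPM in heat stress, so every heat stress brain lay below every control brain, the sole tested member for which this held (background 12%). The log2 fold change was -0.38 (SE 0.11, unadjusted p 0.00741, adjusted p 0.170 by edgeR and 0.0875 by DESeq2). In liver the same gene was at 0.15 (SE 0.22). Cyp7b1, which in brain hydroxylates oxysterols and neurosteroids, was the tested brain member whose heat stress libraries all lay above the controls (background 12.9%), at 11.0, 14.0 and 11.2 CPM against 15.4, 14.9 and 15.1 CPM (0.33, SE 0.15, unadjusted p 0.0519).

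**Figure D5:**
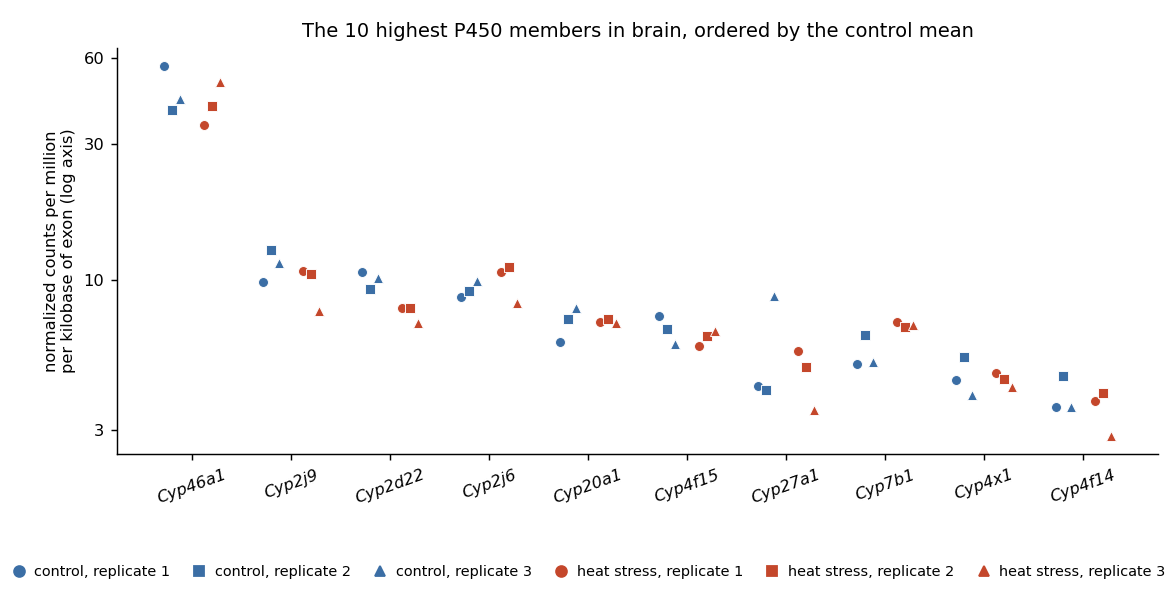
CPM per kilobase of exon (y axis, log scale) of the 10 highest P450 members in the 6 brain libraries, ordered by the control mean. Cyp46a1 lies well above the others, and control and heat stress points are separate for Cyp2d22 and Cyp7b1.

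The remaining tested brain members overlapped between groups. The epoxygenases Cyp2j9 and Cyp2j6 were at -0.23 (SE 0.15) and 0.12 (SE 0.14), Cyp4x1, a brain-enriched enzyme of fatty acid amides, at -0.04 (SE 0.15), Cyp4f15 at -0.10 (SE 0.14), Cyp4f14 at -0.15 (SE 0.20) and Cyp20a1 at 0.01 (SE 0.14). Cyp27a1 stood at 9.26, 8.99 and 19.2 CPM in control and 12.3, 10.8 and 7.65 CPM in heat stress, and Cyp39a1 was at -0.40 (SE 0.25). Cyp11a1, which makes pregnenolone, was at -0.30 (SE 0.22). Heat stress replicate 2 was high for Cyp1b1 (9.23 CPM against 3.51 to 5.07 in the other brains) and for Cyp26b1 (12.4 against 6.23 to 8.99), which both occur in vascular and meningeal cells, and without it their log2 fold changes were -0.33 and -0.16 in place of 0.28 and 0.19.

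Some members under the filter in brain had a few counts each. For Cyp2a5 the 3 control brains gave 0, 4 and 3 counts and the 3 heat stressed ones 9, 10 and 11. Cyp2d26 had 1, 1 and 0 against 3, 7 and 2, and Cyp3a25 had 0, 1 and 0 against 3, 2 and 1, while Cyp3a11 overlapped with 7, 3 and 0 against 5, 15 and 1. The vitamin D activating Cyp27b1 had 9, 5 and 7 counts against 3, 1 and 4. These genes were not tested in the fit of brain alone, and they are named after their values were seen. Cyp3a25 tied at 1 count between the groups. Mean brain levels were 0.038% of the mean liver level for Cyp2a5, 0.030% for Cyp2d26, 0.0086% for Cyp3a25 and 0.0047% for Cyp3a11. Whether these few reads came from brain cells was not tested. Among tested brain genes 12.9% were separate upward and 12% downward, and no such share was computed for genes under the filter.

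Of the 20 partner genes, 16 had a positive log2 fold change in brain, and of 17 tested regulators 4 had a positive and 13 a negative one. Among the partners, Cyb5a, Pgrmc1 and Blvra had an unadjusted p under 0.05 in brain and were higher in every heat stress library (log2 fold changes 0.43, 0.43 and 0.35), near the background of 10% of genes higher at such a p and 12.9% separate upward. Dbp was again higher, at 74.0, 67.3 and 68.0 CPM in control and 97.4, 104 and 108 CPM in heat stress (0.56, SE 0.10, adjusted p 0.170 by edgeR and 0.00401 by DESeq2). Nfil3, the repressor that opposes Dbp, was lower in every heat stress brain (-0.45, SE 0.18, background 12%), and Cux2 was at -0.40 (SE 0.15). Of the 17 tested regulators, 1 was higher and 2 were lower at an unadjusted p under 0.05 by edgeR. The background was 10% of genes in each direction. Alas1 and Por were at -0.34 (SE 0.15) and -0.18 (SE 0.13) in brain.

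The heat effects of the 2 tissues were compared gene by gene in a fit of all 12 libraries. Of 67 members tested there, none passed for a difference by edgeR (background 0.00632% of 15824 genes) or by DESeq2 (background 0.278%), and 7 had an unadjusted p under 0.05 (10.4%, background 9.64%), 3 of them with a greater log2 fold change in liver than in brain (background 3.73%) and 4 with a smaller one (background 5.91%). Only 19 of the 67 passed the filter in each tissue alone, and 2 of the 7, Cyp46a1 and Cyp4f16, were among them. The 4 with a smaller one (Cyp2a12, Cyp2d26, Cyp3a25 and Cyp26a1) had at most 7 counts in any brain library, so their brain effect was barely measured, and 14 of the 67 had no brain count at all. The lowest p was that of Cyp46a1, whose log2 fold change with heat stress was greater in liver than in brain by 1.23 (SE 0.44, unadjusted p 0.0146, adjusted p 0.516).

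Between the control tissues most members in that fit differed, but its filter fixed much of the direction. Of 67 tested, 65 passed (background 80.4%), with 58 higher in liver (background 36.1%) and 7 higher in brain (background 44.2%), namely Cyp46a1, Cyp4x1, Cyp11a1, Cyp2j12, Cyp2s1, Cyp4f16 and Cyp1b1. Since 34 of the 67 never exceeded 3 counts in a brain library and entered the fit through liver, the count higher in liver says little. Of the 19 tested in each tissue alone, 17 passed, with Cyp46a1, Cyp4f16 and Cyp1b1 higher in brain. Cyp46a1 was higher in brain by 3.97 on the log2 scale (SE 0.34, adjusted p 1.0e-07). Cyp4x1 and Cyp2j12 had no count in any liver library. The 2 members that did not pass were Cyp2j9 (-0.06, SE 0.25, brain minus liver) and Cyp26b1 (-0.71, SE 0.44).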

How the data were processed

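RNA of brain and liver was sequenced in 12 libraries, 3 per group. Per the labels, the submitters' processing notes and the methods, the authors trimmed reads with Trimmomatic 0.39, aligned them to mm10 with HISAT2 2.2.1 and counted them per gene with featureCounts (Subread 2.0.1). The deposited values are raw counts per gene symbol, and the methods describe trimming, alignment and counting in 2 ways, the other with an older Trimmomatic, Tophat2 and HTSeq. Counts of paralogs may be split or lost where reads match several genes. From these counts, each tissue was tested with edgeR 4.0.16 (R 4.3.3), using TMM factors, a filter of at least 10 counts, the robust quasi-likelihood test and Benjamini-Hochberg adjustment over all tested genes. A fit of all 4 groups gave the differences between tissues. CPM are counts scaled to a library of 1e6 counts after TMM, and levels per kilobase use the GENCODE M21 exon union. DESeq2 1.42.0, other scalings, filters, covariates and left-out libraries were alternatives. On simulated liver counts, edgeR recovered 187 of 200 genes changed 4-fold, with 8 false calls among 12296, and DESeq2 187 with 25. For brain edgeR recovered 184, and for the difference between tissues 154. No tested P450 member of liver had a fitted change as large as 4-fold. Smaller changes were not simulated, so these counts do not say how many of them the test would find. The named genes were the members at an unadjusted p under 0.05 in either tissue, the highest liver member per length of each subfamily, the 10 highest brain members per length, tested members of the role lists, and partner or regulator genes at an unadjusted p under 0.05. Others were named after their values were seen. The members, lists and named genes were chosen with earlier results of these data known. Promoters are from RefSeq (GRCm38.p6), matched by symbol.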

Additional observations from a re-analysis of the deposited data

How the results depend on the processing

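Of 43 members named in liver and followed through the alternatives, 31 kept the direction of their log2 fold change under every one run, and 8 of 14 did in brain. Cyp2d9, Cyp2d13, Cyp2c23 and Cyp2c55, also named in liver, were not among those followed. The count of liver members past the adjusted threshold was 3 with DESeq2 in place of 0, and the log2 fold changes it gave were 0.86 for Cyp2a5, -1.15 for Cyp2a22 and -1.09 for Cyp26a1. Liver members higher at an unadjusted p under 0.05 were 9 without both libraries with muscle transcripts and 3 to 9 when 1 library was left out (9 without control replicate 1, 3 without heat stress replicate 3), against 5. Those lower were 5 in the fit of all groups, with DESeq2 and without a filter, 7 without both muscle libraries and 2 to 7 when 1 library was left out (7 without heat stress replicate 2, 5 without replicate 3), against 3. Without both muscle libraries the liver median was 0.034, against -0.10. In brain, members higher were 4 in the fit of all groups, 2 without a filter and 1 with RLE or upper quartile factors, against 0, and 0 to 1 when 1 library was left out. Those lower were 1 to 2 (2 without heat stress replicate 1). The brain median was 0.11 in the fit of all groups, where 67 in place of 23 members were tested, 0.17 without a filter and -0.12 to -0.011 when 1 library was left out. For the difference between tissues, members lower were 1 without both muscle libraries and 0 to 7 when 1 library was left out (0 without brain heat stress replicate 2, 7 without brain or liver heat stress replicate 3), against 4. The causes of these changes were not tested.

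Whether replicate numbers pair the samples could not be settled from the counts. Correlations of same-numbered deviations were -0.58, -0.51 and -0.09 in liver and -0.29, 0.19 and -0.20 in brain. The deviations of the 3 libraries of a group sum to 0, so these correlations constrain each other. In liver the highest of all was 0.55, between control replicate 1 and heat stress replicate 2, the libraries with muscle transcripts. With the replicate block, 0 members passed in liver and in brain, 2 members were lower in the difference between tissues, and Cyp21a1 in liver was at -0.013.

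Signs turned for some log2 fold changes. With the suffix as a covariate, liver values were -0.20 for Cyp21a1, 0.16 for Cyp2b10, 0.077 for Cyp2c29, 0.093 for Cyp2f2, 0.030 for Cyp2u1 and 0.0066 for Cyp4f14. Without both muscle libraries they were 0.016 for Cyp2a12, 0.034 for Cyp2b10, 0.28 for Cyp2c29, 0.32 for Cyp2f2, 0.12 for Cyp2u1 and 0.12 for Cyp4f14. Without a filter, Cyp20a1 in brain was at -0.0040. When 1 library was left out, liver values ran from -0.20 to 0.32 for Cyp21a1, -1.06 to 0.095 for Cyp26b1, -0.48 to 0.42 for Cyp2b10, -0.24 to 0.29 for Cyp2c29, -0.38 to 0.30 for Cyp2f2, -0.35 to 0.036 for Cyp2r1, -0.22 to 0.15 for Cyp2u1, -0.11 to 0.70 for Cyp4a10, -0.26 to 0.52 for Cyp4a31, -0.33 to 0.20 for Cyp4f14 and -0.57 to 0.23 for Cyp7a1, and brain values from -0.33 to 0.51 for Cyp1b1, -0.098 to 0.0996 for Cyp20a1, -0.16 to 0.35 for Cyp26b1, -0.47 to 0.17 for Cyp27a1, -0.29 to 0.017 for Cyp46a1 and -0.14 to 0.083 for Cyp4x1. Low counts limit Cyp2g1, Cyp4f16, Cyp2b13 and most brain members.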
